A study of Rattus norvegicus with 6 samples.

Results

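The genes described here encode the potassium channels of the dorsal root ganglion and their accessory subunits. They were chosen by name: every transcript cluster that the deposited annotation classes as coding and gives a single symbol beginning with Kcn, with the cluster of highest mean over the arrays where a symbol had several. The rule gave 92 genes out of 22447 coding genes with 1 symbol, from 97 coding clusters, and a further 5 Kcn clusters of other classes were left out. Of the 92 genes, 66 encode pore-forming subunits, 10 encode silent Kv subunits and 16 encode accessory subunits. The samples were lumbar dorsal root ganglia of 3 diabetic and 3 control Sprague-Dawley rats, all male, with ganglia of both sides pooled per rat and 1 Affymetrix rat transcriptome array hybridised per rat. The diabetic rats had received 1 dose of 65 mg/kg streptozotocin (STZ), which kills pancreatic beta cells, and were kept when blood glucose after 1 week was not under 16.7 mM. The control rats had received citrate buffer, and tissue was taken from both groups at 8 weeks. The model is one of insulin deficiency from an acute toxin. The labels give no age and no genetic change in either group, and only the weight, 180 to 220 g, at the start.

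Potassium channels let potassium leave the cell and so hold the resting potential of a neuron, end its action potentials and set how often it fires. Voltage-gated (Kv) channels are tetramers of pore-forming subunits, which accessory subunits modify and silent Kv subunits join without making a channel alone. Inward rectifiers and 2-pore-domain channels carry current near rest, and calcium- and sodium-activated channels follow the ions that enter during firing. In sensory neurons these channels are known as brakes on excitability, and satellite glial cells around the neurons take up potassium through an inward rectifier.

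Signals are on the log2 scale, where a difference of 1 is a doubling of signal. Array medians lay between 3.95 and 4.05 in diabetic rats and between 4.01 and 4.15 in control rats, and signal over background sets what an array can measure. Neuronal markers were abundant, with Nefh, a neurofilament, at a mean of 18.94 and Tubb3, a neuronal tubulin, at 18.30, and so the defining markers of the labelled tissue were present. A gene is called brighter here when its mean lay above 6.25, the mean over arrays of the 90th percentile of 1153 negative control probe sets, whose value per array ran from 6.06 to 6.67. By this measure 47 of the 92 potassium channel genes were brighter and 45 dimmer, and a dim gene's difference can be compressed towards 0. Control replicate 3 carried the highest negative control level, 6.67, and the lowest limma array weight, 0.54.

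No potassium channel gene passed the test across all clusters, and the members with the smallest p-values were a mixture of roles. Among the brighter genes, the smallest p belonged to Kcnj10, the glial inward rectifier, with a lower mean in diabetic ganglia. Next came Kcnip2, a Kv4 accessory subunit, and Kcnh6, an ERG-type channel, both with higher means. Diabetic minus control was tested with limma, and 0 of the 92 genes had an adjusted p under 0.05, where 0.00581% of all 68842 clusters did. The limma p without adjustment was under 0.05 for 12 genes. Of these, 9 (9.78%) had the higher mean in diabetic rats, beside 3.97% of all coding genes, and 3 (3.26%) the lower mean, beside 3.34%. Among the 47 brighter genes the same counts were 6 higher (12.8%), beside 6.69% of brighter coding genes, and 2 lower (4.26%), beside 3.75%. The split of 9 higher to 3 lower was 9 to 1 when arrays were centred on their medians, where 6.91% of coding genes were higher and 1.7% lower. It was 8 to 3 after quantile normalisation, beside 4.12% and 2.95%, and 18 to 1 when arrays were centred on negative controls, beside 11.5% and 1.01%.

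The overlap of the arrays gave counts without a test. All 3 diabetic arrays lay above all 3 control arrays for 10 genes (10.9%), beside 8.21% of coding genes, and below them for 8 genes (8.7%), beside 6.99%. Among brighter genes the counts were 8 (17.0%), beside 12.4%, and 4 (8.51%), beside 5.49%. These 18 genes were Kcnj2, Kcnip2, Kcnh6, Kcnk9, Kcnv1, Kcnk3, Kcna3, Kcnh5, Kcnn2 and Kcns3 on the higher side and Kcnj10, Kcna4, Kcnj11, Kcnj4, Kcnip4, Kcng4, Kcnn4 and Kcng1 on the lower side. For Kcng1, a silent subunit, the gap was minute, with 8.28, 8.28 and 8.27 in diabetic rats against 8.32, 8.32 and 8.30 in control rats, so a lack of overlap does not mean a large difference. The median log2 fold change was 0.01 over the 92 genes and 0.00 over coding genes, and 0.10 over the 47 brighter genes beside 0.07 over brighter coding genes. Differences ran from -0.85 for Kcnj10 to 0.91 for Kcnh6. The median over all clusters was -0.04 as deposited, 0.03 after median centring, 0.00 after quantile normalisation and 0.08 after centring on negative controls, so small differences of one sign depend on the scaling.

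**Figure D1:**
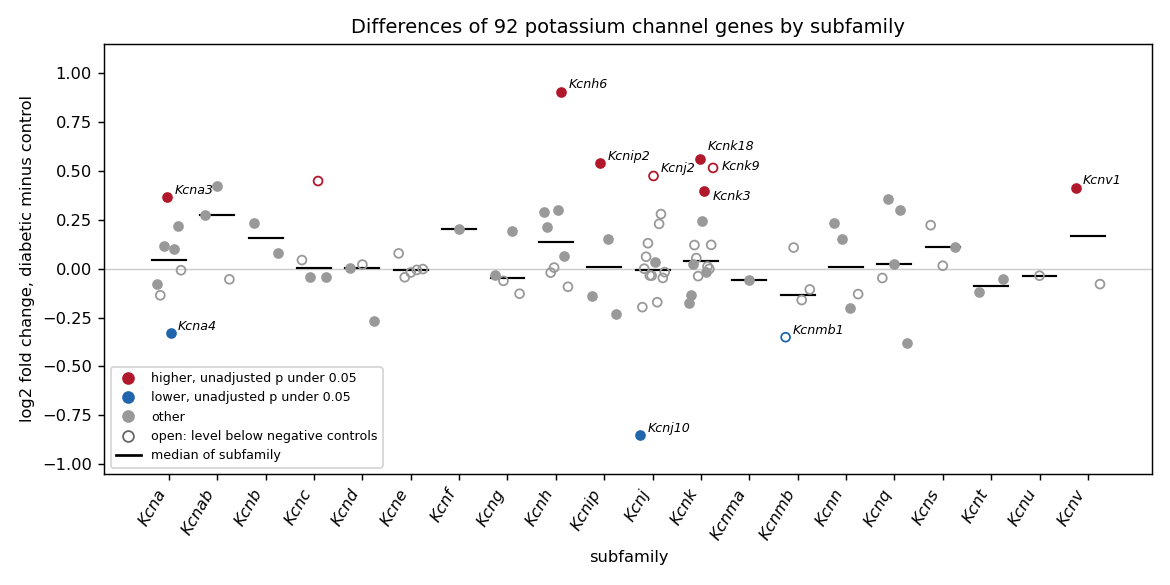
Log2 fold change (diabetic minus control, vertical axis) of each of the 92 potassium channel genes by subfamily (horizontal axis). Each point is 1 gene, open where its mean lay below the negative controls, red or blue where the unadjusted limma p was under 0.05, and the bar is the subfamily median. Kcnh6 lies highest at 0.91 and Kcnj10 lowest at -0.85, while most genes lie near 0.

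The promoters of 4 genes are shown: Kcnj10, Kcnip2 and Kcnh6, the brighter genes of smallest p, and Kcna4, the brighter Kv1 gene with the lower mean and no overlap. They were picked after their values had been seen. Each is the 300 bases from 250 before to 50 after the gene's start in RefSeq's rat assembly GRCr8, read 5′ to 3′ on the gene's strand. The places are chr13:87334260-87334559 (plus strand) for Kcnj10, chr1:254613849-254614148 (minus strand) for Kcnip2, chr10:91449401-91449700 (plus strand) for Kcnh6 and chr3:114215086-114215385 (plus strand) for Kcna4. Capitals mark matches on either strand to the motifs searched.
Kcnj10: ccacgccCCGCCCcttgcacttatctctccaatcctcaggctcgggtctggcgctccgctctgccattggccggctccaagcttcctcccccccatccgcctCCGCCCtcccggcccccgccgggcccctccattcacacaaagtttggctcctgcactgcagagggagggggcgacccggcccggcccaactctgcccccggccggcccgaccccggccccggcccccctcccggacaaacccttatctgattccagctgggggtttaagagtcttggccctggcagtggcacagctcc
Kcnip2: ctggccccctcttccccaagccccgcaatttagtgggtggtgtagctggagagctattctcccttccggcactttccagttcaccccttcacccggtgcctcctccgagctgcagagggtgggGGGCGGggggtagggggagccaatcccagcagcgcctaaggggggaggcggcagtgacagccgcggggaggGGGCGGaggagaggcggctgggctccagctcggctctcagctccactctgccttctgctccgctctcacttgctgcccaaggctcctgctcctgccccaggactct
Kcnh6: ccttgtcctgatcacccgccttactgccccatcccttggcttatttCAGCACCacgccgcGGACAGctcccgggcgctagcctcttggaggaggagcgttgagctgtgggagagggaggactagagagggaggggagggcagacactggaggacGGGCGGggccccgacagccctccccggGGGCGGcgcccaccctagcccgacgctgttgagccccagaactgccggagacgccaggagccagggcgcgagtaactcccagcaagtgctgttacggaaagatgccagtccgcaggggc
Kcna4: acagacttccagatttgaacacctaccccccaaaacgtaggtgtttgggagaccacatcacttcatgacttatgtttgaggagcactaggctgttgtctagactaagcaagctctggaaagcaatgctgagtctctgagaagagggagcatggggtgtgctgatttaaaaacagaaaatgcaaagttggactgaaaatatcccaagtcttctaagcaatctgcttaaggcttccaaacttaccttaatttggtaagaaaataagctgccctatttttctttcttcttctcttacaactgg

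The motifs searched on both strands were the GC box GGGCGG, bound by Sp1-family factors, the E-box CACGTG, the cAMP response element TGACGTCA, the AP-1 site TGANTCA, the TATA box TATAAA and the left part CAGCACC and the right part GGACAG of the element bound by REST, a repressor of neuronal genes. Kcnj10, Kcnip2 and Kcnh6 each held 2 GC boxes, which read CCGCCC where they lie on the other strand, and the Kcna4 promoter held none of the motifs. The Kcnh6 promoter also held both REST parts, with 7 bases between them. GC content was 70.3% for Kcnj10, 67.7% for Kcnip2, 67.7% for Kcnh6 and 41.7% for Kcna4. Promoters were listed for 62 of the 92 genes, and their median GC content was 61.4%, beside 51.7% over all 33469 promoters. The channel genes enter with a single promoter each. The larger set is every listed entry, limited neither to a single entry per gene nor to coding genes, so it is not a matched background.

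A GC box was found in 31 of the 62 potassium channel promoters (50%) and in 33.1% of all promoters of that length. The TATA box was found in 1 of 62 (1.61%), against 14.2% of all. The left REST part was found in 6 (9.68%), against 6.78%, and the right part in 19 (30.6%), against 21.7%. Both parts lay in 4 promoters (6.45%), those of Kcnh5, Kcnc2, Kcnh6 and Kcng4, against 1.59% of all. They were counted on either strand, in any order and at any spacing, which does not show a whole REST element. The spacing was measured for Kcnh6 only. The E-box was found in 3 (4.84%), against 6.42%, the AP-1 site in 2 (3.23%), against 7.33%, and the cAMP response element in 0, against 1.83%. None of the motif counts was tested, and motifs rich in G and C occur more often where GC content is higher.

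Among the inward rectifiers, 14 genes in all, only Kcnj10 and Kcnj3 were brighter. Kcnj10 encodes Kir4.1, which satellite glial cells and other glia use to take up potassium. Its log2 signal was 7.33, 7.88 and 7.74 in diabetic rats, against 8.58, 8.35 and 8.57 in control rats. Every diabetic array lay below every control array, with diabetic replicate 1 the lowest. The means were 7.65 ± 0.28 in diabetic rats and 8.50 ± 0.13 in control rats (SD, n = 3 each), a log2 fold change of -0.85 (SE 0.16), or 0.554-fold (limma adjusted p = 0.53). Over the alternatives the log2 fold change stayed between -0.97 and -0.69. The cluster, of 31 probes, lies at chr13:90723077-90752581 on the plus strand by the deposited annotation, whose genome build is not given in the sources used here. It lies 12892 bases from Kcnj9, a G-protein-gated channel, which was dim at 3.40, 3.41 and 3.32 in diabetic rats against 3.50, 3.35 and 3.33 in control rats.

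In bulk tissue, fewer cells of a type and less RNA per cell cannot be told apart. Satellite glial markers were read beside Kcnj10: of 8 measured, 5 had the lower and 3 the higher mean in diabetic rats, with a median of -0.29. Their mean level over the list was 9.80 to 10.49 in diabetic arrays and 10.21 to 10.98 in control arrays, overlapping between the groups. Ptprz1, a receptor phosphatase of glia, differed by -1.04 (limma adjusted p = 0.53) and Cdh19, a glial cadherin, by -0.81 (adjusted p = 0.62). Ptprz1 read 9.24, 10.14 and 10.19 in diabetic rats against 10.93, 10.50 and 11.24 in control rats, with diabetic replicate 1 again the lowest. Fabp7, a fatty acid carrier, and Slc1a3, a glutamate transporter, differed by -0.30 and -0.27, while Glul, glutamine synthetase, differed by 0.19, Apoe, a lipid carrier, by 0.06, and Gja1, the gap-junction protein connexin 43, by 0.02. None of the 8 passed the adjusted p, none was at 0, and Gja1 alone had a mean below the negative controls.

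Markers of myelinating Schwann cells were lower in mean for 9 of 9, with a median of -0.52, and 0 of them passed the adjusted p (the smallest was 0.057, for Mal, a myelin proteolipid). When each array was dropped in turn, the median of the satellite glial markers lay between -0.63 and 0.04. It was near 0 in the fits lacking diabetic replicate 1 (0.04) or control replicate 3 (-0.02) and lowest in those lacking diabetic replicate 2 (-0.58) or control replicate 2 (-0.63). Over the 6 such fits the Schwann median ran from -0.66 to -0.39 and the log2 fold change of Kcnj10 from -0.97 to -0.69. The part of these cell types in the Kcnj10 difference was not tested.

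**Figure D2:**
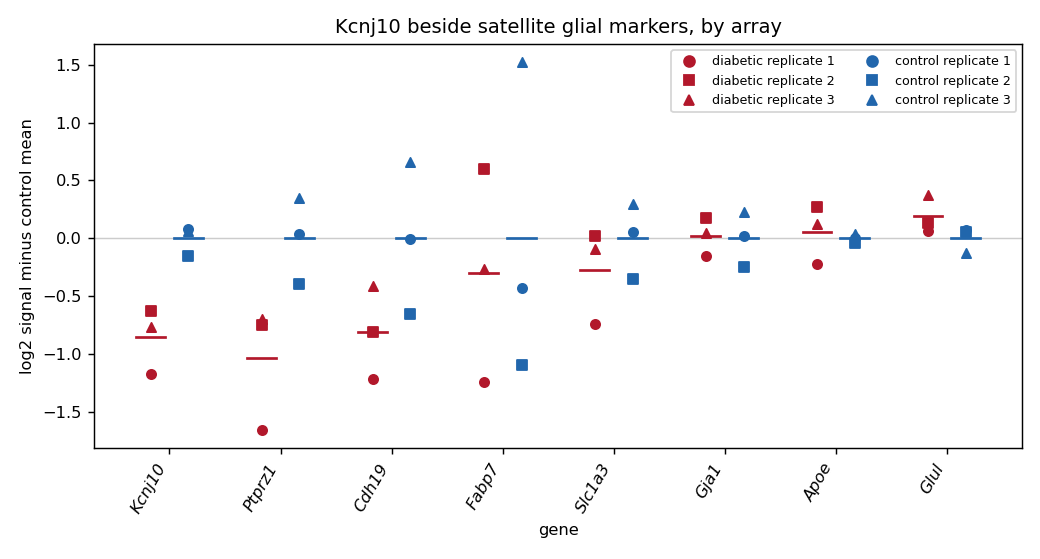
Log2 signal minus the control mean (vertical axis) for Kcnj10 and 7 of the satellite glial markers (horizontal axis), with 1 point per array and bars at group means. The 3 diabetic arrays lie below the 3 control arrays for Kcnj10 and Ptprz1, while the means of Apoe, Gja1 and Glul lie 0.06, 0.02 and 0.19 above the control mean.

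The other inward rectifiers were mostly near or below background. Kcnj3, a G-protein-gated subunit (GIRK1), had 9.50, 9.24 and 9.36 in diabetic rats against 9.25, 9.47 and 9.28 in control rats, with overlapping groups and a log2 fold change of 0.03. Kcnj2, the classical strong inward rectifier Kir2.1, had 4.46, 4.55 and 4.63 in diabetic rats against 4.05, 3.97 and 4.20 in control rats, a log2 fold change of 0.47 (SE 0.10, limma adjusted p = 0.53). The Kcnj2 groups did not overlap, yet all 6 arrays lay under the negative controls. Kcnj11, the pore of the ATP-sensitive channel, was as dim, with 4.01, 4.08 and 3.95 in diabetic rats against 4.28, 4.19 and 4.16 in control rats (log2 fold change -0.20, limma adjusted p = 0.64). Its regulatory subunits differed by 0.11 for Abcc8 and by -0.07 for Abcc9. Over the 14 genes 6 had higher and 8 lower means, a split that became 11 to 3 after median centring. Over all 92 genes the split of 48 higher to 44 lower became 71 to 21.

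The Kcnh subfamily holds the EAG, ERG and ELK channels, which return or hold the membrane near rest. Higher means were seen in 6 of its 8 genes, with a median of 0.14, beside 48 of all 92 genes. After median centring, quantile normalisation and centring on negative controls the Kcnh counts were 7, 7 and 8. Over all 92 genes they were 71, 62 and 76, so the rise with scaling was not particular to Kcnh. Kcnh6, which encodes the ERG2 subunit, gave 7.57, 6.82 and 7.49 in diabetic rats, against 6.39, 6.62 and 6.15 in control rats. The groups did not overlap, with diabetic replicate 2 nearest to the controls. The means were 7.29 ± 0.41 in diabetic rats and 6.39 ± 0.23 in control rats (SD, n = 3 each), a log2 fold change of 0.91 (SE 0.21) or 1.87-fold (limma adjusted p = 0.53), and between 0.77 and 1.14 over the alternatives. The control arrays lay close to the negative control level of 6.25, and a fold against a level near background can be understated. The cluster, of 160 probes, is placed at chr10:94207331-94228236 on the plus strand.

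The sister ERG gene Kcnh2 had 9.96, 9.14 and 9.99 in diabetic rats against 9.39, 9.87 and 9.21 in control rats, with overlapping groups and a log2 fold change of 0.21. Kcnh7, the third ERG gene, had 12.99, 13.14 and 12.99 in diabetic rats against 13.19, 12.99 and 12.75 in control rats, a log2 fold change of 0.06. The EAG genes had higher means: Kcnh1 had 8.54, 7.94 and 8.48 in diabetic rats against 8.05, 8.16 and 7.87 in control rats. Kcnh5 had 8.54, 8.33 and 8.47 in diabetic rats against 8.31, 8.28 and 7.86 in control rats, a log2 fold change of 0.30 (limma adjusted p = 0.66). The Kcnh1 groups overlapped and the Kcnh5 groups did not, by a margin of 0.02 between diabetic replicate 2 and control replicate 1. The ELK genes Kcnh3, Kcnh4 and Kcnh8 were dim, with differences of -0.02, 0.01 and -0.09.

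**Figure D3:**
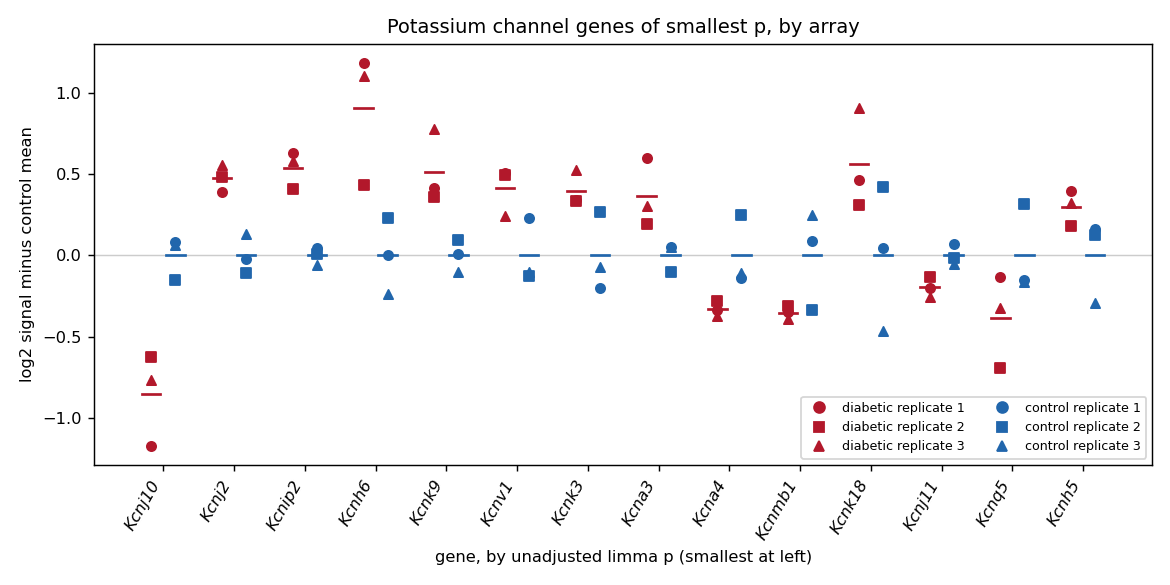
Log2 signal minus the control mean (vertical axis) for 14 of the 15 potassium channel genes of smallest unadjusted limma p (horizontal axis, smallest p at left), with 1 point per array and bars at group means. The diabetic arrays of Kcnj10 lie below all control arrays and those of Kcnip2 and Kcnh6 above them, and the groups of Kcnk18, Kcnmb1 and Kcnq5 overlap.

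The Kv1 subfamily (Kcna) makes low-threshold delayed rectifiers that gather beside the nodes of Ranvier in myelinated axons. Its 8 genes split evenly between higher and lower means, with a median of 0.05. Kcna1 had 15.29, 14.74 and 15.30 in diabetic rats against 14.88, 15.47 and 15.21 in control rats, and Kcna2 had 12.43, 11.94 and 12.14 in diabetic rats against 11.85, 12.37 and 11.95 in control rats. In both genes diabetic replicate 2 was the lowest of its group and control replicate 2 the highest of its own, and the groups overlapped, with log2 fold changes of -0.08 and 0.11. Kcna6 had 9.12, 8.47 and 9.15 in diabetic rats against 8.59, 8.91 and 8.59 in control rats, the same array order with a log2 fold change of 0.22.

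Kcna4, the Kv1 subunit that gives a fast-inactivating current, had 8.92, 8.98 and 8.89 in diabetic rats against 9.12, 9.51 and 9.15 in control rats. The diabetic arrays lay close together and below all controls, of which replicate 2 was highest. The means were 8.93 ± 0.05 in diabetic rats and 9.26 ± 0.22 in control rats (SD, n = 3 each), with a log2 fold change of -0.33 (SE 0.14, limma adjusted p = 0.62). The unadjusted p of Kcna4 was over 0.05 after median centring and without control replicate 2, among others, with a range over alternatives of 0.026 to 0.25, and without that array the log2 fold change was -0.21. Kcna3, best known from T cells, went the other way, with 8.54, 8.13 and 8.24 in diabetic rats against 7.99, 7.83 and 7.99 in control rats. Those groups did not overlap either (log2 fold change 0.37, SE 0.14, limma adjusted p = 0.60). Kcna3 and Kcna2 lie 69797 bases apart on chromosome 2, and Kcna5, Kcna1 and Kcna6 follow each other on chromosome 4.

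Of the Kv1 beta subunits, which bind Kv1 channels in the cytoplasm, Kcnab2 had 13.28, 12.63 and 13.26 in diabetic rats against 12.58, 13.03 and 12.29 in control rats. Kcnab1 had 13.52, 13.18 and 13.40 in diabetic rats against 13.32, 13.00 and 12.97 in control rats. The groups overlapped in both, with log2 fold changes of 0.42 and 0.27 and a limma adjusted p of 0.68 each. Of 12 Kv1 partners at the juxtaparanode, 7 had higher and 5 lower means (median 0.13), 0 passed the adjusted p, and 1 in each direction (8.33%) had an unadjusted p under 0.05, beside 3.97% higher and 3.34% lower over coding genes. These were Lgi2, a secreted protein of the LGI family, at 0.50 (limma adjusted p = 0.60) and Lgi4, a Schwann cell protein needed for myelination, at -0.57 (adjusted p = 0.55). Epb41l3 and Adam23, the partners of highest signal, differed by 0.09 and -0.07.

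Kv2 channels (Kcnb) are the main delayed rectifiers of many neuronal cell bodies. Kcnb2 had 10.54, 10.24 and 10.54 in diabetic rats against 10.41, 10.62 and 10.05 in control rats, a log2 fold change of 0.08. Its groups overlapped, and diabetic replicate 2 was again the lowest diabetic array and control replicate 2 the highest control array. Kv3 channels (Kcnc), which allow fast firing, had 2 brighter genes, Kcnc2 and Kcnc4, with differences of -0.05 and -0.04, both with overlap. Kcnc1 lay at the level of the negative controls and differed by 0.04.

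Kv4 channels (Kcnd) carry the A-type current that delays firing, and calcium-binding KChIP subunits (Kcnip) raise their surface expression. The Kv4 pore genes had differences near or below 0. Kcnd1 had 12.53, 12.07 and 12.53 in diabetic rats against 12.39, 12.65 and 12.08 in control rats, with a log2 fold change of 0.00. Kcnd3 had 10.78, 10.68 and 10.88 in diabetic rats against 10.95, 11.32 and 10.86 in control rats, overlapping by 1 diabetic array, with a log2 fold change of -0.27 (limma adjusted p = 0.68). Kcnd2 was dim, between 4.74 and 4.80 in all 6 arrays.

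Kcnip2 (KChIP2) had 15.09, 14.86 and 15.04 in diabetic rats, against 14.50, 14.46 and 14.40 in control rats. All diabetic arrays lay above all control arrays, and the spread within each group was small beside the gap. The means were 14.99 ± 0.12 in diabetic rats and 14.45 ± 0.05 in control rats (SD, n = 3 each), with a log2 fold change of 0.54 (SE 0.12), or 1.45-fold (limma adjusted p = 0.53). It stayed between 0.49 and 0.66 over the alternatives. This cluster, of 30 probes, was built from a RefSeq transcript that the annotation does not place on the genome. A pair of similar unplaced Kcnip2 clusters differed by 0.48 and 0.50. A placed cluster of 140 probes lies at chr1:262892549-262916343, on the plus strand by the deposited annotation. The Kcnip2 promoter shown above lies on the minus strand in GRCr8, so whether the placed cluster reads the Kcnip2 transcript is not known. The clusters of Kcng3 and Kcnh8 also differ in strand from their GRCr8 promoters, and the same limit holds for them. The placed Kcnip2 cluster gave 10.67, 10.54 and 10.74 in diabetic rats against 10.34, 10.22 and 10.24 in control rats. That placed cluster differed by 0.38 (SE 0.12, limma adjusted p = 0.57). The groups did not overlap in it either, but the clusters may share probed sequence and are not independent measurements.

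The other KChIP genes had smaller differences, of either sign. Kcnip4, one splice form of which slows the inactivation of Kv4 channels, had 12.50, 12.58 and 12.38 in diabetic rats against 12.82, 12.61 and 12.73 in control rats. Its groups did not overlap, with the lower values in diabetic rats and a log2 fold change of -0.23 (limma adjusted p = 0.67). Kcnip1 differed by -0.14 and Kcnip3, also known as the calcium-binding repressor DREAM, by 0.15, both with overlap. Of 6 partners of Kv4 and Kv2 channels 3 had higher and 3 lower means and 0 passed the adjusted p. Amigo1, a Kv2 auxiliary protein, differed by 0.50 (limma adjusted p = 0.65), Dpp6 by 0.20 and Dpp10 by -0.15, both peptidase-like Kv4 subunits.

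Kv7 channels (Kcnq) carry the M-current, a slow brake on repetitive firing. Of the 5 Kcnq genes 3 had higher and 2 lower means, with a median of 0.03, beside 48 and 44 of all 92 genes. Kcnq5 had 10.72, 10.16 and 10.53 in diabetic rats against 10.70, 11.17 and 10.69 in control rats, a log2 fold change of -0.38 (SE 0.19, limma adjusted p = 0.66). The groups overlapped, with control replicate 2 the highest array and diabetic replicate 2 the lowest. Kcnq3, another M-current subunit, had 8.52, 8.40 and 8.61 in diabetic rats against 8.23, 8.75 and 8.48 in control rats, a log2 fold change of 0.03. Of 8 proteins that anchor or regulate Kv7 channels and the node, 6 had higher and 2 lower means and 0 passed the adjusted p. Nrcam, a node adhesion molecule, differed by 0.37 (limma adjusted p = 0.64), and Calm2, which encodes calmodulin, by -0.04.

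The 2-pore-domain genes (Kcnk) make leak channels, and 9 of 14 had higher means, beside 48 of all 92 genes. Under the other scalings the Kcnk count was 10 to 12, beside 62 to 76 of all 92. Kcnk18 encodes TRESK, a calcineurin-regulated leak channel of sensory neurons. It had 9.56, 9.41 and 10.00 in diabetic rats against 9.15, 9.52 and 8.63 in control rats. Diabetic replicate 2 lay below control replicate 2, so the groups overlapped. The means were 9.66 ± 0.31 in diabetic rats and 9.10 ± 0.44 in control rats (SD, n = 3 each), with a log2 fold change of 0.56 (SE 0.24), or 1.47-fold (limma adjusted p = 0.64). Without control replicate 3, the lowest array of the gene, the log2 fold change was 0.33.

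Kcnk3 and Kcnk9, acid-sensitive leak channels, had higher means without overlap, while the dim Kcnk5 (TASK-2) and Kcnk15 (TASK-5) differed by 0.01 and 0.05 with overlap. Kcnk3 (TASK-1) had 6.74, 6.73 and 6.93 in diabetic rats against 6.20, 6.67 and 6.33 in control rats, with a log2 fold change of 0.40 (SE 0.14, limma adjusted p = 0.59). Kcnk9 (TASK-3) was dim in every array, with 5.08, 5.03 and 5.44 in diabetic rats against 4.68, 4.76 and 4.56 in control rats and a log2 fold change of 0.52 (SE 0.13, limma adjusted p = 0.53). The mechanically gated genes Kcnk2, Kcnk4 and Kcnk10 (TREK-1, TRAAK and TREK-2) differed by 0.24, -0.02 and -0.13, all with overlap. Kcnk4 was almost level, at 6.69, 6.75 and 6.66 in diabetic rats against 6.71, 6.69 and 6.74 in control rats. Kcnk1, a weak leak channel (TWIK-1), had 13.19, 13.28 and 13.50 in diabetic rats against 13.50, 13.31 and 13.68 in control rats, a log2 fold change of -0.17.

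The pore genes of calcium- and sodium-activated channels had unadjusted limma p-values of 0.11 or more. Kcnma1, the large-conductance BK channel, had 10.54, 10.36 and 10.58 in diabetic rats against 10.50, 10.62 and 10.54 in control rats, a log2 fold change of -0.06 (SE 0.12). The small-conductance gene Kcnn2 had 8.73, 8.60 and 8.60 in diabetic rats against 8.45, 8.56 and 8.46 in control rats, which do not overlap, and its second cluster, which does, differed by 0.12. Kcnn1 differed by 0.23 and Kcnn3 by -0.20, both with overlap. Kcnt1 (Slack) and Kcnt2 (Slick), the sodium-activated channels, differed by -0.12 and -0.05. Among the BK beta subunits, all dim, Kcnmb1 had 5.12, 5.16 and 5.08 in diabetic rats against 5.56, 5.13 and 5.72 in control rats (log2 fold change -0.35, limma adjusted p = 0.63). Control replicate 2 overlapped the diabetic arrays, and the gene lies within Kcnip1 on the opposite strand of chromosome 10. Of 6 measured partners of BK and Slack channels 3 had higher and 3 lower means, and Lrrc26, a BK gamma subunit, differed by -0.42 (limma adjusted p = 0.53) at a mean of 4.06, under the negative controls.

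Silent subunits have no current of their own and alter Kv2 channels when they join them. Kcnv1 had 8.30, 8.28 and 8.03 in diabetic rats against 8.02, 7.66 and 7.69 in control rats. The groups were separated by a narrow gap between diabetic replicate 3 and control replicate 1. The means were 8.21 ± 0.15 in diabetic rats and 7.79 ± 0.20 in control rats (SD, n = 3 each), a log2 fold change of 0.41 (SE 0.14, limma adjusted p = 0.58). Kcns3 had 9.52, 9.55 and 9.60 in diabetic rats against 9.35, 9.47 and 9.51 in control rats, a log2 fold change of 0.11. Kcns1, linked to pain sensitivity in rats, was dim and differed by 0.22, Kcnf1 by 0.21 and Kcng3 by 0.19, all with overlap. The single-span Kcne subunits were dim in all 5 genes, with differences between -0.04 and 0.08.

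The lists of regulators also held no gene past the test. Of 12 transcription and chromatin regulators, 6 had higher and 6 lower means (median -0.01), and 0 had an adjusted p, or an unadjusted limma p, under 0.05. REST (Rest) differed by -0.04, Ehmt2 (the histone methyltransferase G9a) by 0.09 and Ezh2, a histone methyltransferase of Polycomb, by -0.18. Of 6 degradation and trafficking genes, 5 had higher means and 0 passed. Senp2, which removes SUMO from proteins, differed by 0.25, and the ubiquitin ligases Nedd4 and Nedd4l by 0.01 and 0.09.

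Array by array, the brighter potassium channel genes shared a pattern seen after their values were known. In 26 of the 47 (55.3%), diabetic replicate 2 was the lowest diabetic array and control replicate 2 the highest control array, as in Kcna1, Kcnb2, Kcnh2 and Kcnq5. Over brighter coding genes that share was 29.8%, and it was 9 of 11 neuron markers and 0 of 8 satellite glial markers. The median deviation of the 47 genes from their own means was 0.16, -0.11 and 0.09 in diabetic arrays, against -0.04, 0.10 and -0.18 in control arrays. Neuron markers had 0.17, -0.05 and 0.13 in diabetic arrays, against -0.10, 0.12 and -0.20 in control arrays. Within each group the order of the arrays was the same in both lists, and the spread between rats of a group was wider than the difference between groups.

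Neuron markers had higher means in 10 of 11 cases, with a median of 0.14, and in 8 of 11 after quantile normalisation and 6 of 11 without control replicate 3. Isl1, a sensory neuron transcription factor, differed by 0.43 (limma adjusted p = 0.56), and Nefh and Nefl, the markers of highest signal, by -0.02 and 0.04. Macrophage markers had higher means in 5 of 6, with a median of 0.53, and 3 of the 6 were brighter. Their median deviation was -0.70 in control replicate 2, against -0.09 to 0.47 in the other arrays. Without that array the macrophage median was 0.26. Fibroblast markers had lower means in 4 of 6, with a median of -0.99 between collagen genes at -2.02 to -1.59 and the proteoglycans Lum at -0.40 and Dcn at 0.25. The part of neuronal content in the channel values was not tested.

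**Figure D4:**
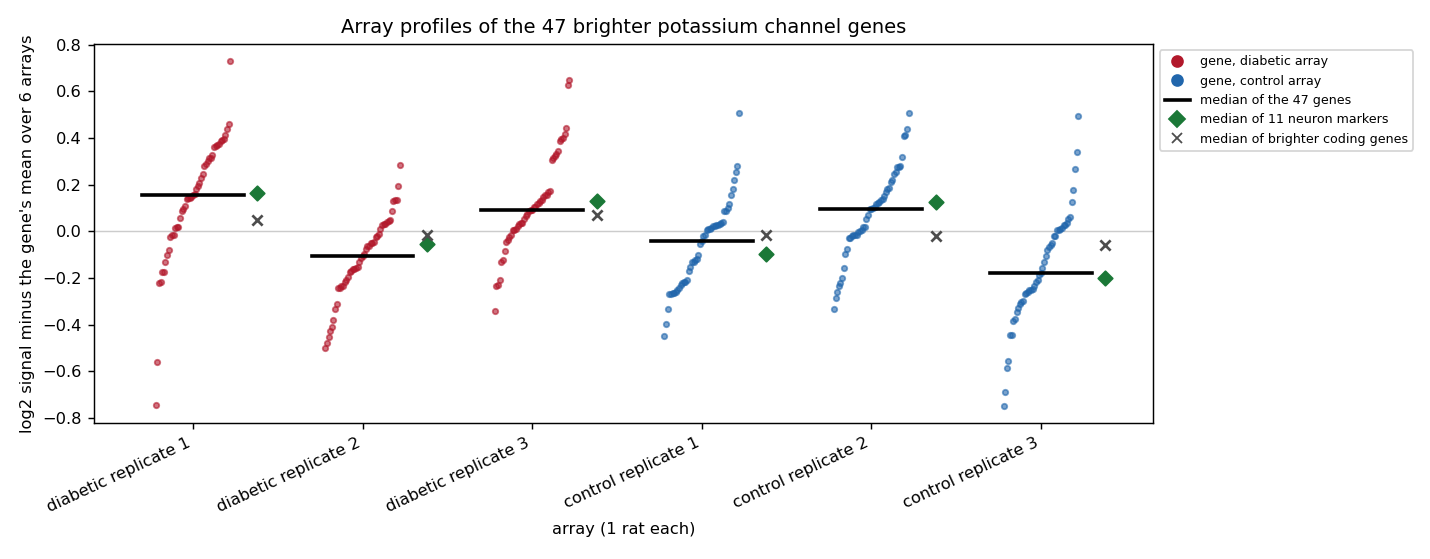
Log2 signal minus each gene's own mean over 6 arrays (vertical axis), for the 47 brighter potassium channel genes in each array (horizontal axis), with the median of the genes as a black bar, that of 11 neuron markers as a diamond and that of brighter coding genes as a cross. Within each group bars and diamonds share their order, with diabetic replicate 2 and control replicate 3 lowest.

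Single arrays moved the counts. Without diabetic replicate 2, 18 genes had a higher mean with an unadjusted limma p under 0.05, of which 8 were among the 9 reported and 10 were added, among them Kcna6, Kcnab1, Kcnab2, Kcnh1, Kcnh2, Kcnj6 and Kcns1. Of all coding genes 7.12% were higher at that p in the same fit. Without control replicate 3 the count was 5, beside 3.09% of coding genes. These 5 were Kcnj2, Kcnip2, Kcnh6, Kcnk9 and Kcna3. The count of lower genes was 1 or 2 when any 1 array was left out, beside 1.73% to 5.43% of coding genes, and Kcnj10 was among them each time. The unadjusted p of Kcnv1, Kcnk3, Kcna3, Kcnk18, Kcna4 and Kcnmb1 was over 0.05 without at least 1 of the arrays, while that of Kcnj10, Kcnip2, Kcnh6, Kcnj2 and Kcnk9 was not. No gene passed the adjusted limma p in any of these fits.

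**Figure D5:**
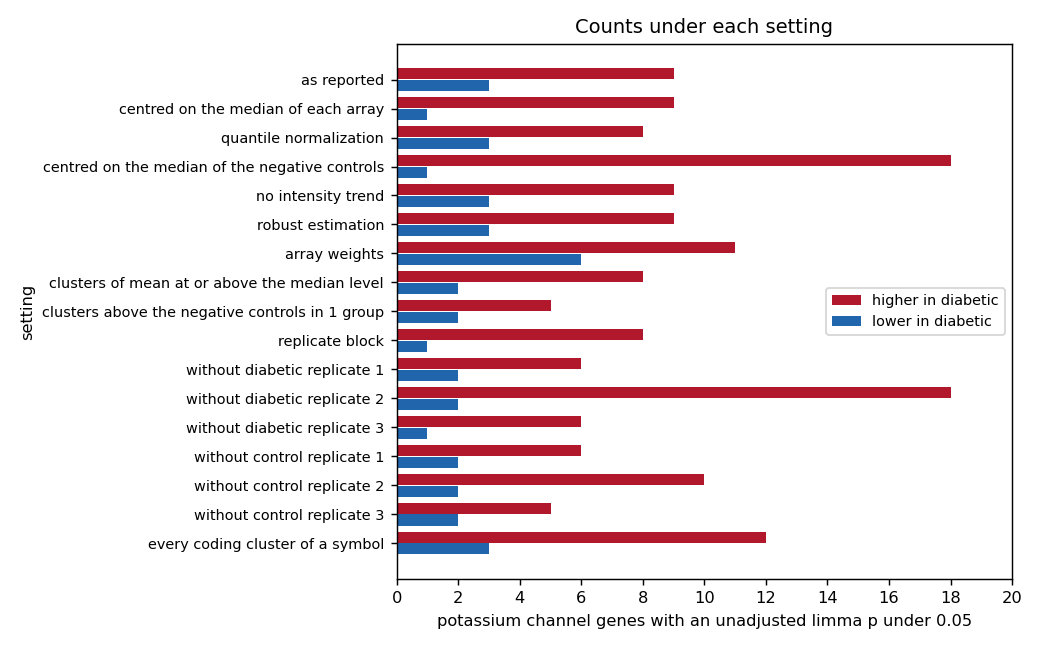
Number of potassium channel genes with an unadjusted limma p under 0.05 (horizontal axis) under each processing alternative (vertical axis), red for a higher and blue for a lower mean in diabetic rats. The higher count runs from 5 to 18 and the lower count from 1 to 6. Over coding genes the higher share ran from 2.11% to 11.5% and the lower share from 1.01% to 5.43%.

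Many potassium channel genes are overlapped by non-coding clusters, which the array also measures. On the opposite strand 91 non-coding clusters overlapped 48 of the genes, of which 84 lay under the negative controls in all 6 arrays and 3 above them in all 6. None passed the adjusted p. At an unadjusted limma p under 0.05, 0 had higher and 3 lower means in diabetic rats, where all non-coding clusters had 1.02% higher and 6.1% lower. The opposite-strand cluster within Kcna2 was level, with 7.68, 7.50 and 7.47 in diabetic rats against 7.48, 7.49 and 7.47 in control rats (log2 fold change 0.07, limma adjusted p = 0.87). On the same strand 47 clusters overlapped 18 genes, with 1 higher and 1 lower at that p. The higher one overlaps Kcnk9 at chr7:113898648-113900910 and had 6.46, 5.81 and 6.68 in diabetic rats against 5.62, 5.62 and 4.99 in control rats. Its log2 fold change was 0.91 (SE 0.25, limma adjusted p = 0.53), beside 0.52 for Kcnk9 itself, and the groups did not overlap in either. This cluster lay above the negative controls in only 2 of the 6 arrays. It lies wholly within the Kcnk9 cluster on the same strand, so both may read the same RNA and are not independent measurements. The lower one overlaps Kcnu1, a pH-regulated channel known from sperm, and differed by -0.53. Kcnu1 itself was dim, with a mean of 3.31, and differed by -0.04.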

How the data were processed

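RNA of lumbar ganglia was measured on 6 arrays, 3 diabetic and 3 control, each of a separate rat. The authors deposited 1 log2 signal for each cluster and array, made with SST-RMA per the file headers; RMA is also named, without a version, in the submitters' processing notes. RMA can compress differences of dim clusters. The sources used here do not give a genome build, and coordinates are those of the deposited annotation. All 423480 deposited detection calls read absent and were not used.

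Gene symbols are the annotation's, and all 92 are in the RefSeq gene table of GRCr8. Of 70580 probe sets 1738 controls were left out. Diabetic minus control was fitted with limma (3.58.1, R 4.3.3) over 68842 clusters, with group as the only term, an intensity trend and Benjamini-Hochberg adjustment (threshold 0.05), after a test on simulated data. An exact permutation test of 3 against 3 was not used. SE is that of the fitted difference. Alternatives changed the scaling, variance model, filters on dim clusters and arrays. Levels are not compared between genes.

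The members and lists were chosen with earlier results of these data known. Genes named are the 15 of smallest p, the brightest of each subfamily and a preset list; others were named after their values were seen, to account for a subfamily. Of each partner or marker list, the genes named are mainly the 2 of smallest p and the 2 of highest signal. Non-coding clusters were matched by an overlap of at least 1 base; some span whole regions. Of the listed symbols, Pou4f1 and Tmem16c were not matched, but Tmem16c is an older symbol of Ano3, which was listed and measured. Endothelial, muscle and blood marker medians were 0.09, -0.46 and -0.48. The muscle value rested on control replicate 2, where the median deviation of the 6 markers was 1.09, against -0.29 to -0.13 in the other arrays. Without that array the muscle median was -0.09 and the endothelial median -0.10. Some genes are counted in the totals but not reported here by name.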

Additional observations from a re-analysis of the deposited data

How the results depend on the processing

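No potassium channel gene passed the adjusted limma p as reported or in any alternative run. The count of lower genes at an unadjusted p under 0.05, 3 as reported, was 1 with arrays centred on medians, 1 centred on negative controls and 6 with array weights. The shares of all coding genes in those fits were 1.7%, 1.01% and 4.56%, beside 3.34% as reported. The count of higher genes, 9 as reported, was 18 with centring on negative controls and 5 when clusters had to exceed the negative controls in 1 group. The shares of coding genes were 3.97% as reported, 11.5% with that centring and 7.07% of the 9297 coding genes kept by the filter. Genes without overlap on the higher side, 10 as reported, numbered 19 with centring on negative controls. On the lower side, 8 as reported, they numbered 3 with median centring, 5 after quantile normalisation, 1 with centring on negative controls and 4 with the filter against negative controls. A shift of every array by a constant, or fewer genes entering, is built into those alternatives; the cause of the other changes was not tested. Leaving out 1 array at a time gave 5 to 18 higher and 1 to 2 lower genes by p, and a median of 0.01 to 0.05. The shares of coding genes by p were then 2.11% to 7.12% higher and 1.73% to 5.43% lower. Genes without overlap can only grow in number with fewer arrays. They were then 11 to 26 higher, with 17 without control replicate 2 and 26 without diabetic replicate 2, and 10 to 13 lower. The share of coding genes without overlap was not computed for any alternative, so those counts have no background.

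The replicate block gave 8 higher and 1 lower gene (Kcnj10), beside 2.75% and 2.57% of coding genes. Same-numbered rats had correlations of 0.04, -0.12 and -0.13 between their deviations from the group means. The labels name no pairing, and correlations this low cannot show that there was none. None of the 15 genes of smallest p changed sign in any alternative. With every coding cluster of a symbol counted, 12 clusters were higher and 3 lower, and the added ones were all of Kcnip2, a gene already counted. With 3 rats a group, and 45 of 92 genes under the negative control level, small differences and those of dim genes could not be resolved.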

Other observations

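Some genes had more than 1 coding cluster. The 4 Kcnip2 clusters, which may share probed sequence, differed by 0.54, 0.48, 0.50 and 0.38 on the log2 scale, all with the higher mean in diabetic rats. The placed one, at 0.38, is annotated on the plus strand, unlike the GRCr8 promoter. The Kcnk6 clusters, of a leak channel (TWIK-2), differed by 0.01 and 0.00 and were dim. The Kcnn2 clusters differed by 0.15 and 0.12.

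The 5 Kcn clusters left out by class were all dim. The unassigned Kcnj1 cluster, of the renal inward rectifier ROMK, had 4.45, 4.54 and 4.37 in diabetic rats, against 4.75, 4.60 and 4.78 in control rats. Its groups did not overlap, with a log2 fold change of -0.26 (limma adjusted p = 0.61), while the other Kcnj1 cluster differed by 0.00 with overlapping groups.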
